A study of Mus musculus with 12 samples.

Results

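Amino acid transporters of the liver cell surface were followed through an acetaminophen (APAP) overdose in mice. The members are 10 genes chosen by name, *Slc7a1*, *Slc7a2*, *Slc7a5*, *Slc3a2*, *Slc38a2*, *Slc38a4*, *Slc38a3*, *Slc1a4*, *Slc1a5* and *Slc6a9*, and all 10 were among the 45777 genes of the deposited table. RNA from 12 whole livers was sequenced, with 3 livers in each of 4 groups that combined a genotype (WT, or the Gα12 knockout written here as KO) with a treatment (vehicle or APAP). All mice were C57BL/6 males, labelled as 10-12 weeks old and per the methods fasted overnight, and APAP was a single intraperitoneal dose of 300 mg/kg taken 6 h before the liver. The WT mice were littermates of the *Gna12* KO mice, and the comparisons asked what APAP did to the transcripts and whether the genotype changed it.

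Cells import amino acids through transporters that differ in substrate and in driving force. System A and system N carriers pull small neutral amino acids or glutamine inward together with sodium, system L exchanges large neutral amino acids across the membrane, system ASC exchanges small neutral ones, and system y+ carries lysine, arginine and ornithine. The liver is the main site of amino acid breakdown and urea synthesis, and in many cells shortage of amino acids or stress of the endoplasmic reticulum (ER) raises several of these transporters through the transcription factor ATF4.

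Libraries held between 49737950 and 69566079 counts, and levels are given as counts per 1000000 (CPM) after scaling by the trimmed mean of M-values (TMM). *Gna12*, the gene disrupted in the KO mice, was not lower under the KO label: it had 54.6 to 67.2 CPM in the KO vehicle livers and 43.5 to 48.3 CPM in the KO APAP livers, against 34.8 to 66.7 and 23.7 to 58.1 CPM in the WT groups. The genotype is therefore written as a label, and where in the gene the deletion lies was not given in the sources used here. The paper checked WT and KO mice by PCR of tail DNA, liver *Gna12* qRT-PCR and Gα12 immunoblots. It does not say whether these were the sequenced mice. WT APAP liver 1 stood apart, with summed erythroid markers (7 genes, chiefly the globins *Hbb-bs* and *Hba-a1*) at 17362 CPM against 253 to 749 CPM in the other 11 livers. It also had the lowest TMM factor, 0.750, and the lowest correlations with its own group (Pearson's r 0.961 and 0.973 on log2 CPM). Its summed hepatocyte (130126), stellate (419), endothelial (222), neutrophil (116), cholangiocyte (75.0), platelet (21.7) and lymphocyte (4.84 CPM) markers were the highest of all livers. The upper ends of such ranges below are therefore this liver. All 5 hepatocyte markers were above 1 CPM in the mean, and their sum was 59109 to 86250 CPM with vehicle and 71806 to 130126 CPM after APAP. In whole liver, fewer cells of a type and less RNA per cell cannot be told apart.

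Promoter sequence shows what the start of the genes that rose looks like. The RefSeq promoter table of build GRCm38.p6 held 11 start sites for 6 of the 10 members, and *Slc7a2*, *Slc7a5*, *Slc38a3* and *Slc1a5* were without an entry. Windows from 250 bases before to 50 bases after each start were searched on both strands for 3 motifs: TGATGNAA, the core of the CARE element bound by ATF4 with its partners, TGACNNNGC, the core of the antioxidant response element (ARE) bound by NRF2, and TGANTCA, the AP-1 site. The letters of the ARE and AP-1 motifs share their first bases and can overlap. The stretches below run 5′ to 3′ on the minus strand, where all 4 genes lie, from 150 bases before the start to its 20th base, with motif letters in capitals. They are shown for the 4 transporters that rose after APAP and had an entry. Of the 2 *Slc7a1* starts only the first is shown, and the second held no match to these motifs.
Slc7a1, chr5:148399885-148400054: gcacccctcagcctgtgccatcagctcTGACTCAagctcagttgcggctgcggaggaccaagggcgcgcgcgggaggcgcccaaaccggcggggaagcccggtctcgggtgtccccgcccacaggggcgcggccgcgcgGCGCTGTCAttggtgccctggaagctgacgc
Slc38a2, chr15:96699709-96699878: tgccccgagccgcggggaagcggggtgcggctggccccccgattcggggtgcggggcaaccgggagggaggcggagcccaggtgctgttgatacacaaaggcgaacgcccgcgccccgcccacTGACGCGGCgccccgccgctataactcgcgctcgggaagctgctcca
Slc1a4, chr11:20332694-20332863: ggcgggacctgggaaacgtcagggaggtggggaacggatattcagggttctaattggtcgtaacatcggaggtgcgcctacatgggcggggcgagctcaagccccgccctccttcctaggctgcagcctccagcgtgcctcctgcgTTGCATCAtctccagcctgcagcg
Slc3a2, chr19:8713878-8714047: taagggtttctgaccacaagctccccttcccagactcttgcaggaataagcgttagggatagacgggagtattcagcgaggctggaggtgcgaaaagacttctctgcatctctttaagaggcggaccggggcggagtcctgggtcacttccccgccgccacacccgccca

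The *Slc1a4* promoter held a CARE match beginning 4 bases before the start, at -4, which reads TTGCATCA on the gene's strand. The first *Slc7a1* promoter held an AP-1 match, TGACTCA, at -123 and an ARE match, GCGCTGTCA, at -11. *Slc38a2* had an ARE match, TGACGCGGC, at -27, while the *Slc3a2* window held none of these letters. The only *Slc3a2* start with an entry lies inside the annotated gene (chr19:8706882-8723369), so the annotated 5′ end was not searched. Of the members that did not rise, *Slc6a9* had an ARE match in 2 of its 3 promoters and *Slc38a4* had no match in its 3. These motifs are common, since CARE letters occurred in 3.97%, ARE letters in 12.4% and AP-1 letters in 7.81% of 32851 promoters of the same length. A match is a description of letters and not a bound site.

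With vehicle, the levels per transcript length spanned a wide range. *Slc38a3*, the glutamine carrier SNAT3 of system N, led with 1181 ± 313 TPM (length-scaled transcripts per 1000000; SD, n = 6), followed by *Slc38a4* (SNAT4, system A) with 510 ± 63.0 TPM, *Slc7a2* (the cationic transporter CAT2) with 223 ± 65.2 TPM and *Slc38a2* (SNAT2, system A) with 61.2 ± 11.5 TPM. *Slc6a9*, the glycine transporter GLYT1, had 23.6 ± 4.73 TPM and *Slc3a2*, the heavy chain 4F2hc, had 18.0 ± 3.34 TPM. The other 4 members were below 1 TPM in the mean, namely *Slc7a5* (the system L light chain LAT1) with 0.911, *Slc1a5* (ASCT2) with 0.679, *Slc1a4* (ASCT1) with 0.570 and *Slc7a1* (CAT1) with 0.112 TPM. In this order the ranges over 6 livers overlapped between *Slc38a3* and *Slc38a4*, between *Slc6a9* and *Slc3a2*, and along *Slc7a5*, *Slc1a5* and *Slc1a4*, and the other neighbours were separated.

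**Figure D1:**
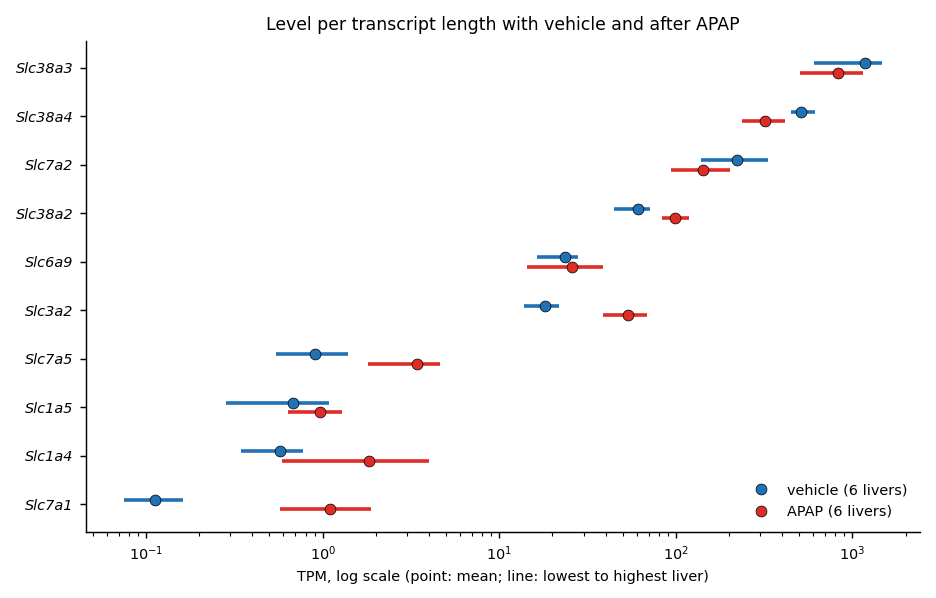
TPM of the 10 transporters on a log axis, with the mean as a point and the lowest to highest liver as a line, for 6 vehicle and 6 APAP livers. The 3 carriers with the most transcripts moved left with APAP, while *Slc7a1*, *Slc7a5*, *Slc3a2* and *Slc38a2* moved right; *Slc7a1* went from 0.112 to 1.10 TPM.

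After APAP the same 4 genes stayed at the top, with *Slc38a3* at 826 ± 207, *Slc38a4* at 321 ± 70.3, *Slc7a2* at 143 ± 35.5 and *Slc38a2* at 99.4 ± 14.7 TPM. The ranges of *Slc7a2* and *Slc38a2* now overlapped, which they did not with vehicle. *Slc3a2*, at 53.7 ± 11.4 TPM, passed *Slc6a9*, at 25.8 ± 7.79 TPM, and the ranges of this pair no longer overlapped. The last 4 places went to *Slc7a5* (3.41 ± 1.13), *Slc1a4* (1.83 ± 1.14), *Slc7a1* (1.10 ± 0.472) and *Slc1a5* (0.964 ± 0.221 TPM), whose neighbours all overlapped.

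APAP raised 5 and lowered 3 of the 10 transporters when all 12 livers were fitted together with the genotype label as a term. The risen genes were *Slc7a1*, *Slc7a5*, *Slc3a2*, *Slc1a4* and *Slc38a2*, and the fallen genes were *Slc38a4*, *Slc7a2* and *Slc38a3*, and the latter were the 3 members with the most transcripts per length. Across 16112 genes tested, 14.0% were called higher and 11.7% lower at an adjusted p under 0.05. The median log2 fold change was 0.58 over the 10 members and 0.01 over all genes tested. In 5 members every APAP liver lay above every vehicle liver (7.16% of all genes), and in 1, *Slc38a4*, every APAP liver lay below (5.51% of all genes). The 5 cholangiocyte markers summed to 27.5 to 75.0 CPM after APAP against 12.0 to 26.3 CPM with vehicle, without overlap. *Sox9* was higher by 3.20 on the log2 scale (adjusted p = 2.57e-05), *Epcam* by 0.82 (adjusted p = 0.0206), while *Spp1* was at 0.04 (adjusted p = 0.947), and *Krt19* and *Krt7* were not called. The summed macrophage, endothelial, stellate, lymphocyte, platelet and neutrophil markers overlapped between treatments, but single genes within some of these lists were called. The neutrophil sum was 0.543 to 116 CPM after APAP and 0.169 to 13.8 CPM with vehicle. Neutrophil *Cxcr2* was higher (2.79, adjusted p = 0.0376), while *Retnlg* (3.07), *S100a8* (3.01) and *S100a9* (2.69) did not pass (adjusted p = 0.0738 to 0.0883). Endothelial *Lyve1* (1.09, adjusted p = 8.60e-05) and *Pecam1* (0.41, adjusted p = 0.0119) were higher. Platelet *Ppbp* (8.86, adjusted p = 0.0159) and *Pf4* (2.01, adjusted p = 0.0485) were also higher, both at low levels. Mean *Ppbp* was 0 CPM in both vehicle groups, 0.183 CPM in the KO APAP and 1.94 CPM in the WT APAP livers. Its fold change thus rests on a vehicle level of 0. Mean *Pf4* was 0.180 and 0.379 CPM in the KO and 0.352 and 2.45 CPM in the WT livers, vehicle then APAP. The platelet sum was 21.7 CPM in WT APAP liver 1 and at most 4.97 CPM in the other APAP livers. These 2 calls were not examined without that liver. Stellate *Lrat* was lower (-0.88, adjusted p = 0.0489), and no macrophage or lymphocyte marker was called.

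**Figure D2:**
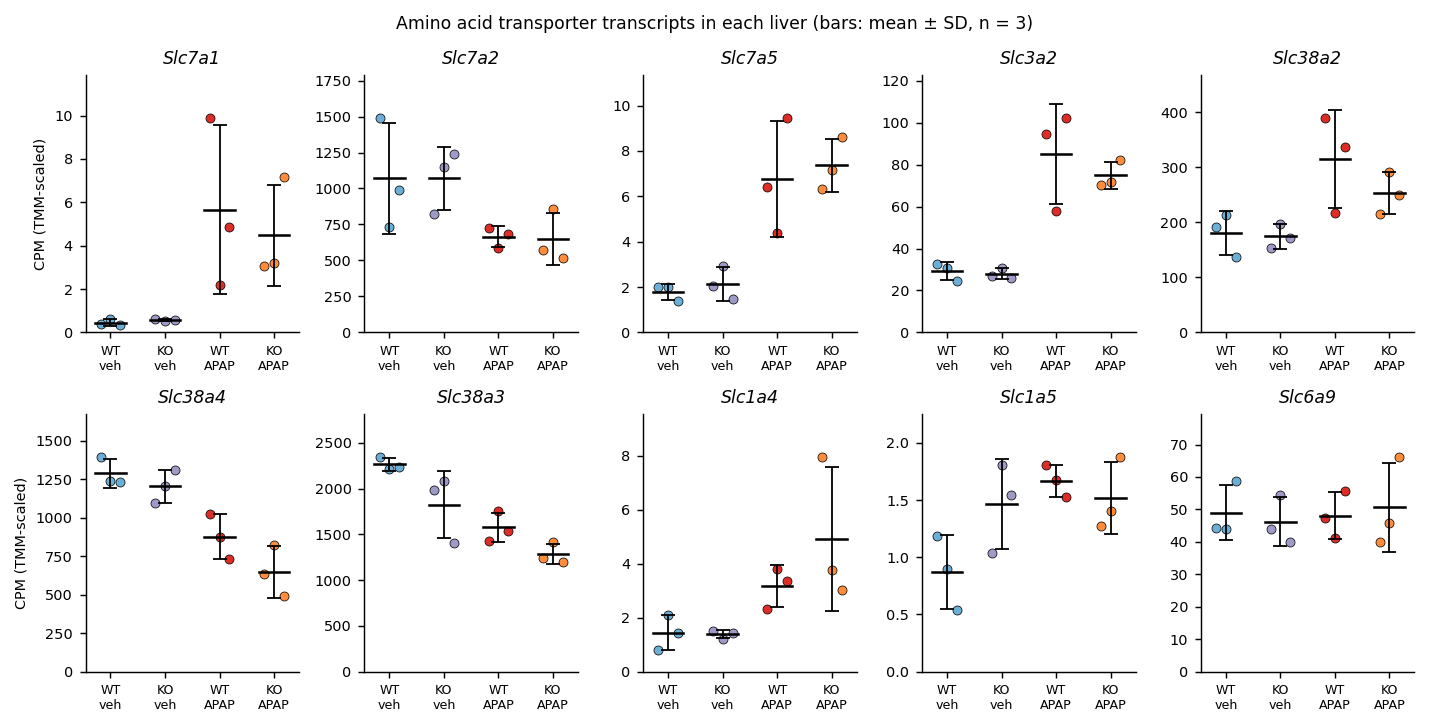
CPM of each transporter in the 12 livers, with points for livers and bars for the mean and SD of each group of 3. APAP livers lay above vehicle livers without overlap for *Slc7a1*, *Slc7a5*, *Slc3a2*, *Slc38a2* and *Slc1a4*, and below them without overlap for *Slc38a4*.

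Among the cationic amino acid transporters, the 2 genes moved in opposite directions. *Slc7a1*, on chr5:148327410-148399904, encodes CAT1, the widely expressed high-affinity arginine and lysine carrier that adult liver holds at a low level. Its CPM was 0.375, 0.629 and 0.359 in the WT vehicle livers and 0.604, 0.525 and 0.552 in the KO vehicle livers. With APAP it was 9.91, 2.20 and 4.88 in the WT and 3.08, 3.20 and 7.14 in the KO livers. Every APAP liver was thus above every vehicle liver, and the APAP livers also spread more widely. The mean rose 9.98-fold, and the log2 fold change was 3.31 (SE 0.38, adjusted p = 7.96e-05, edgeR). WT APAP liver 1, the liver with the high erythroid markers, was the highest in CPM, and without it the log2 fold change was 2.98 (adjusted p = 4.79e-05). The vehicle level rests on 18 to 36 counts per library.

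*Slc7a2*, on chr8:40862341-40922070, encodes CAT2, whose liver form is a low-affinity carrier of arginine, lysine and ornithine. In the vehicle livers its CPM was 1493, 734 and 988 (WT) and 820, 1150 and 1239 (KO). The APAP livers had 726, 588 and 682 (WT) and 572, 855 and 518 (KO). WT vehicle liver 2 was low and KO APAP liver 2 high, so that the 2 treatments overlapped. On the log2 scale the change was -0.70 (SE 0.19, adjusted p = 0.0156). Per transcript length *Slc7a2* still exceeded *Slc7a1* after APAP, at 143 against 1.10 TPM.

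Both chains of the system L exchanger rose together. *Slc7a5* (chr8:121881146-121907686) encodes LAT1, the light chain that transports leucine and other large neutral amino acids, and *Slc3a2* (chr19:8706882-8723369) encodes 4F2hc, the heavy chain that brings LAT1 and several other light chains to the membrane. *Slc7a5* had 1.99, 1.99 and 1.38 CPM in the WT and 2.03, 2.92 and 1.46 CPM in the KO vehicle livers. After APAP it had 6.39, 4.38 and 9.48 CPM in the WT and 6.33, 7.14 and 8.61 CPM in the KO livers. The lowest APAP liver, WT liver 2, was above the highest vehicle liver. The mean rose 3.60-fold, with a log2 fold change of 1.85 (SE 0.22, adjusted p = 0.000109).

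For *Slc3a2* the vehicle livers had 32.7, 30.7 and 24.3 CPM (WT) and 27.1, 30.8 and 25.7 CPM (KO), a narrow range. The APAP livers had 94.7, 58.0 and 102 CPM (WT) and 70.4, 71.8 and 82.3 CPM (KO). Again no APAP liver overlapped the vehicle livers, and WT APAP liver 2 was the lowest. The mean rose 2.80-fold and the log2 fold change of 1.48 (SE 0.14, adjusted p = 1.76e-05) had the smallest adjusted p of the 10 members. Per transcript length the heavy chain exceeded the light chain in both treatments, at 18.0 against 0.911 TPM with vehicle and 53.7 against 3.41 TPM with APAP. Across livers the chains had a Pearson's r of 0.73 with vehicle and 0.79 after APAP (Spearman's rho 0.60 and 0.83, n = 6 each, log2(CPM + 1)). Neither passed the correction over 12 relations, with an adjusted exact permutation p of 0.350 with vehicle and 0.342 after APAP for r and of 0.446 in both for rho. Leaving out the 2 livers farthest from the *Slc7a5* median gave 0.66 with vehicle and 0.03 after APAP. Each value rests on 4 livers and a narrower range of *Slc7a5*, so what the 2 livers contributed cannot be told. On log2(TPM + 1) r was 0.88 with vehicle and 0.97 after APAP (adjusted exact permutation p = 0.167 and 0.0667), and 0.91 and 0.84 with the 2 livers left out.

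The 2 system A genes lie close together on chromosome 15 and moved apart. *Slc38a2* (chr15:96687392-96699728) encodes SNAT2, the system A carrier known to increase when cells lack amino acids. It had 192, 213 and 136 CPM in the WT and 154, 198 and 171 CPM in the KO vehicle livers, and after APAP 390, 217 and 336 CPM in the WT and 216, 292 and 250 CPM in the KO livers. The lowest APAP livers, WT 2 and KO 1, were just above the highest vehicle liver, WT 2. With a log2 fold change of 0.67 (SE 0.16, adjusted p = 0.00984) the rise passed the test. Without WT APAP liver 1, the highest APAP liver in CPM but the lowest in TPM (83.4), it was 0.58 (adjusted p = 0.0143).

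*Slc38a4* (chr15:96994816-97055956) encodes SNAT4, an imprinted system A carrier abundant in liver that also takes cationic amino acids. Its vehicle livers had 1395, 1236 and 1233 CPM (WT) and 1094, 1204 and 1310 CPM (KO). The APAP livers had 1021, 876 and 729 CPM (WT) and 633, 825 and 490 CPM (KO). All 6 APAP livers were below all 6 vehicle livers, and KO APAP livers 3 and 1 were the lowest. This gave a log2 fold change of -0.72 (SE 0.15, adjusted p = 0.00346). The annotation places the long non-coding RNA *Gm32840* over 11817 bases of this gene, and how the counting used strand was not given, so reads of the 2 could not be told apart.

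*Slc38a3* (chr9:107651154-107668968) encodes SNAT3, the system N carrier for glutamine, histidine and asparagine that can run in either direction. It had 2349, 2219 and 2238 CPM in the WT vehicle livers but 1981, 2087 and 1405 CPM in the KO vehicle livers. The values after APAP were 1434, 1754 and 1541 CPM (WT) and 1245, 1414 and 1202 CPM (KO). KO vehicle liver 3 was as low as the APAP livers, so the treatments overlapped, and the other vehicle livers were above all APAP livers. On the log2 scale *Slc38a3* changed by -0.51 (SE 0.12, adjusted p = 0.00824).

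Of the system ASC exchangers only *Slc1a4* was called. *Slc1a4* (chr11:20302180-20332713) encodes ASCT1, an exchanger of alanine, serine, cysteine and threonine, and its CPM was 0.789, 2.10 and 1.44 (WT) and 1.49, 1.23 and 1.44 (KO) with vehicle. After APAP it was 2.32, 3.81 and 3.37 (WT) and 7.95, 3.76 and 3.02 (KO). WT APAP liver 1 was barely above WT vehicle liver 2, and KO APAP liver 1 was far above the rest. On the TPM scale WT APAP liver 1 had 0.588, below the 0.776 of WT vehicle liver 2, so the treatments overlapped there. In CPM the log2 fold change was 1.48 (SE 0.30, adjusted p = 0.00306), and without KO APAP liver 1 it was 1.21 (adjusted p = 0.00430).

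*Slc1a5* (chr7:16781334-16798274) encodes ASCT2, a glutamine exchanger prominent in proliferating cells. Its vehicle livers had 1.18, 0.901 and 0.539 CPM (WT) and 1.04, 1.81 and 1.55 CPM (KO), and its APAP livers 1.81, 1.67 and 1.53 CPM (WT) and 1.28, 1.41 and 1.88 CPM (KO). The treatments overlapped under the KO label and not in the WT. The log2 fold change of 0.49 (SE 0.25) did not pass the test (adjusted p = 0.184).

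*Slc6a9* (chr4:117835258-117869305), which encodes the glycine transporter GLYT1, had 39.9 to 58.8 CPM over the 6 vehicle livers and 40.0 to 66.2 CPM over the 6 APAP livers. The ranges nearly coincided, and the log2 fold change was 0.05 (SE 0.14, adjusted p = 0.815). The last 51 bases of the gene overlap *Ccdc24*.

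**Figure D3:**
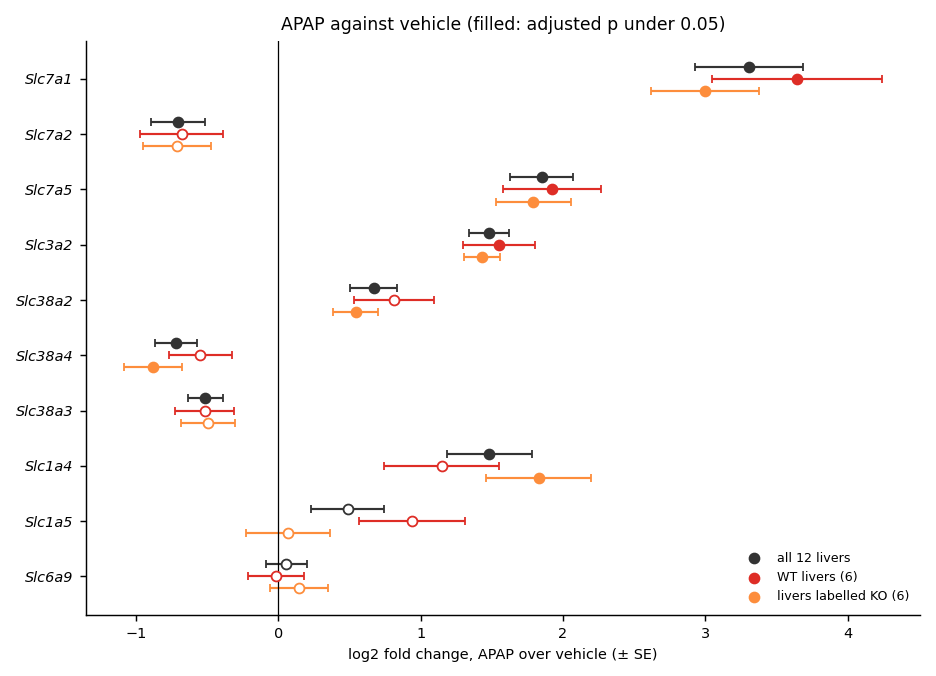
Log2 fold change of APAP over vehicle with its SE for each transporter, in all 12 livers, in the WT livers and in the livers labelled KO, with filled points at an adjusted p under 0.05. *Slc7a1*, *Slc7a5* and *Slc3a2* are filled in all 3 comparisons, and *Slc1a5* and *Slc6a9* in none.

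In the WT livers alone, APAP raised 3 of the 10 transporters and no fall passed the test. The background was 1.62% of 15693 genes called higher and 0.427% called lower. The log2 fold change was 3.65 (SE 0.60, adjusted p = 0.0289) for *Slc7a1*, 1.93 (SE 0.34, adjusted p = 0.0385) for *Slc7a5* and 1.55 (SE 0.25, adjusted p = 0.0287) for *Slc3a2*. *Slc38a2* (0.81), *Slc1a4* (1.15) and *Slc1a5* (0.94) had positive and *Slc7a2* (-0.68), *Slc38a4* (-0.55) and *Slc38a3* (-0.52) negative log2 fold changes with adjusted p-values of 0.184 to 0.280. In CPM the WT groups did not overlap for 6 members that were higher (12.9% of all genes) and 3 that were lower (11.9% of all genes), with *Slc6a9* the exception. These 3 calls depended on single livers: none passed without WT APAP liver 3 or without any 1 of the WT vehicle livers, and 1 (*Slc7a1*) passed without WT APAP liver 1, at a log2 fold change of 2.96 (adjusted p = 0.0435). The 7 neutrophil markers summed to 6.79 to 116 CPM after APAP in the WT against 0.169 to 13.8 CPM with vehicle (*Mpo* and *Camp* at 0 in every liver). WT APAP liver 1 was the highest, and the part of these markers in the results was not tested.

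Under the KO label APAP raised 5 transporters and lowered 1, against a background of 13.0% called higher and 9.60% called lower of 15665 genes. The log2 fold change was 3.00 (SE 0.38, adjusted p = 0.00204) for *Slc7a1*, 1.83 (SE 0.37, adjusted p = 0.0109) for *Slc1a4* and 1.79 (SE 0.26, adjusted p = 0.00337) for *Slc7a5*. It was 1.43 (SE 0.13, adjusted p = 0.000439) for *Slc3a2* and 0.54 (SE 0.16, adjusted p = 0.0402) for *Slc38a2*. *Slc38a4* fell by 0.88 on the log2 scale (SE 0.21, adjusted p = 0.0191). These were also the members whose CPM did not overlap, 5 higher (21.8% of all genes) and 1 lower (21.1% of all genes). *Slc7a2* (-0.71, adjusted p = 0.0628) and *Slc38a3* (-0.49, adjusted p = 0.0935) did not pass, and *Slc1a5* was at 0.07 (adjusted p = 0.894). With 1 liver left out, *Slc7a1*, *Slc7a5* and *Slc3a2* were always called, whereas *Slc38a4* did not pass without KO APAP liver 1 or 3 or KO vehicle liver 2 or 3 (adjusted p = 0.0551 to 0.0607). *Slc38a2* passed only with KO APAP liver 1 left out, and *Slc1a4* did not pass without KO vehicle liver 2 (adjusted p = 0.0508). The neutrophil marker sum was 0.543 to 5.02 CPM after APAP and 0.195 to 0.840 CPM with vehicle in these livers. The 2 genotype labels share no liver, but each shares its livers with the fit of all 12.

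Without APAP, no difference of a transporter between the genotype labels passed the test. In the vehicle livers 0 of 10 members passed and 0 had an unadjusted p under 0.05 (edgeR), against 0.0262% of 15262 genes called, and the DESeq2 test also called 0. The log2 fold change of WT over the KO label ranged from -0.74 (SE 0.37, adjusted p = 0.700), for *Slc1a5*, to 0.31 (SE 0.20, adjusted p = 0.747), for *Slc38a3*. *Slc38a3* was the single member whose groups did not overlap in CPM, with the 3 WT livers higher (14.0% of all genes did not overlap in 1 direction or the other). In TPM its groups overlapped, at 1110 to 1479 in the WT and 603 to 1410 under the KO label.

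After APAP, 0 of 10 members passed between the genotype labels with edgeR and 0 had an unadjusted p under 0.05, against 0.0309% of 16174 genes called, and DESeq2 called 0. The log2 fold changes ranged from -0.62 to 0.44 and the smallest adjusted p was 0.958. In CPM *Slc38a3* again had the 3 WT livers above the 3 livers labelled KO, at a log2 fold change of 0.31 (SE 0.19). It was again the only member without overlap in CPM (8.73% of all genes). In TPM its groups overlapped, at 505 to 1147 in the WT and 766 to 885 under the KO label. Summed neutrophil markers did not overlap between these groups, at 6.79 to 116 CPM in the WT and 0.543 to 5.02 CPM under the KO label. The 116 CPM was WT APAP liver 1, the liver with the high erythroid markers, and the other WT APAP livers had 6.79 and 16.3 CPM. A difference in these sums was not tested.

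The genotype by treatment interaction, the test of whether the response to APAP itself differed, called 0 of 10 members and 0% of 16509 genes with edgeR, where 848 genes and 0 members had an unadjusted p under 0.05. DESeq2 called 7 genes higher, 2 lower and 0 members. The interaction was largest for *Slc1a5*, at 0.87 on the log2 scale (SE 0.46, adjusted p = 0.872). The calls that passed under 1 genotype label and not the other (*Slc38a2*, *Slc1a4* and *Slc38a4*) are therefore not shown to differ between them. With 3 livers a group, standard errors of the interaction ran from 0.25 (*Slc38a3*) to 0.72 (*Slc7a1*). Differences of that size, and ones well above it, could therefore go undetected.

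**Figure D4:**
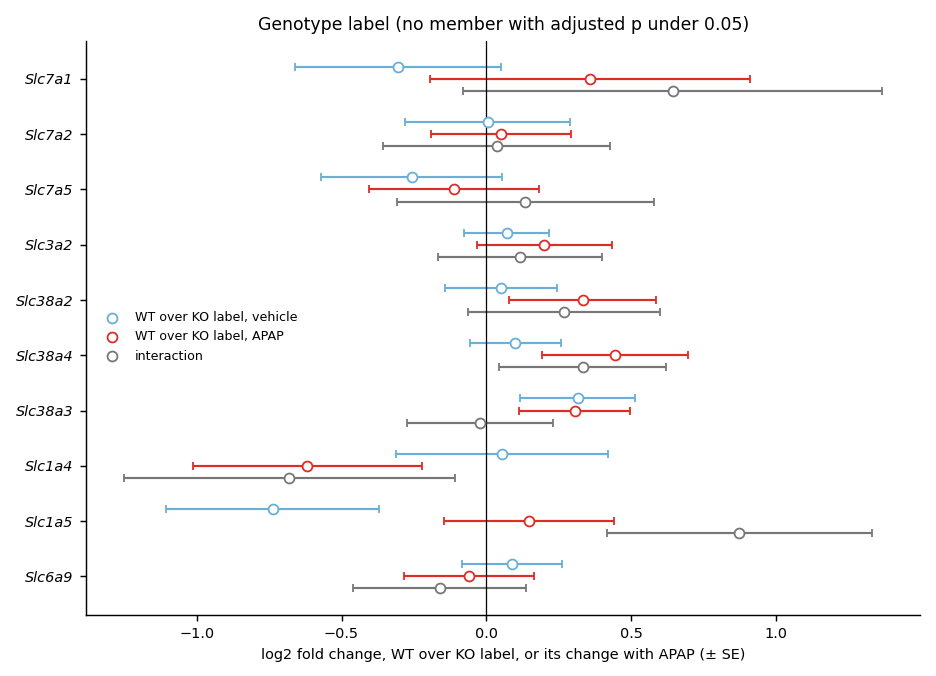
Log2 fold change of WT over the KO label with its SE, with vehicle and after APAP, and the genotype by treatment interaction, for each transporter. All points are open because no adjusted p was under 0.05.

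Other genes of amino acid handling were read in the fit of all 12 livers. Among the other plasma membrane amino acid transporters, 17 of 39 listed genes had enough counts to be tested, and 2 rose and 4 fell (median log2 fold change -0.25, beside 14.0% higher and 11.7% lower over all genes). *Slc7a11*, the cystine/glutamate exchanger xCT that also pairs with 4F2hc, had 0 counts in 5 vehicle livers and 4 counts in the other, against 73 to 461 counts in the APAP livers. *Slc7a6*, the light chain y+LAT2, rose by 1.41 on the log2 scale (SE 0.40, adjusted p = 0.0203) from a mean of 0.346 CPM. *Slc1a2*, the glutamate transporter GLT-1 of hepatocytes around the central vein, fell by 3.32 (SE 0.46), from 169 ± 46.8 to 17.4 ± 13.6 CPM (SD, n = 6). The taurine transporter *Slc6a6* (-0.80), the system L transporter *Slc43a1* (-0.79) and the betaine transporter *Slc6a12* (-0.63) fell less.

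Of the 20 tested organelle transporters 1 rose and 5 fell, beside 14.0% higher and 11.7% lower over all genes. The mitochondrial aspartate/glutamate carrier *Slc25a13* fell by 0.82, from 288 ± 28.2 to 163 ± 16.0 CPM, and the lysosomal transporters *Slc36a1* (-0.86) and *Slc38a9* (-0.36), the latter a sensor of lysosomal arginine, were also lower. The mitochondrial sideroflexins *Sfxn2* (-0.66) and *Sfxn1* (-0.28) completed the 5, and the lysosomal cationic amino acid exporter *Pqlc2* rose by 0.35 (adjusted p = 0.0460). The median over this list was -0.04.

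Genes of the integrated stress response, the program driven by ATF4 when translation initiation is held back, had the highest median of the lists: 19 of 24 were higher and 2 lower (14.0% and 11.7% over all genes), and the median was 1.36 on the log2 scale. The transcription factor genes *Ddit3* (4.94, SE 0.23) and *Atf3* (9.22, SE 0.55) went from 6.75 to 210 CPM and from 1.11 to 595 CPM in the mean. *Ppp1r15a*, which ends the response by promoting dephosphorylation of eIF2α, rose by 2.97, and *Eif2ak3*, the ER kinase PERK, by 1.60. The serine synthesis enzyme *Psat1* (4.82) and the mitochondrial folate enzyme *Mthfd2* (3.76) rose from means of 0.929 and 0.919 CPM.

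Among regulators that pass the amino acid signal to mTORC1, 6 of 28 tested genes rose and 2 fell, with a median of 0.03, and the 28.6% called was near the share over all genes (14.0% and 11.7%). *Lars*, the leucyl-tRNA synthetase, changed most at 1.08 (SE 0.13), from 24.2 ± 2.67 to 51.2 ± 8.56 CPM. The GTPase *Rheb* (0.59), the Ragulator subunit *Lamtor3* (0.46) and the GATOR2 subunit *Mios* (0.42) also rose, while the GATOR1 subunit *Nprl2* (-0.44) and the Rheb inhibitor *Tsc2* (-0.35) fell.

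Enzymes of hepatocyte amino acid metabolism fell more often than they rose, with 13 of 36 lower (11.7% over all genes), 4 higher (14.0%) and a median of -0.30. Glutamine synthetase (*Glul*) fell by 2.25 (SE 0.29), from 647 ± 86.3 to 136 ± 59.9 CPM, and ornithine aminotransferase (*Oat*) by 1.52. The tyrosine enzyme *Hpd* (-0.82) and alanine aminotransferase (*Gpt*, -0.64) were also lower. *Glul*, *Oat* and *Slc1a2* are also 3 of the 5 pericentral hepatocyte markers, whose sum was 9221 to 10631 CPM with vehicle and 3648 to 6054 CPM after APAP, without overlap. The 5 periportal markers overlapped, at 3050 to 5339 CPM with vehicle and 3256 to 4523 CPM after APAP. What the change in pericentral markers contributed to the fall of *Slc38a4*, *Slc7a2* and *Slc38a3* was not tested.

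**Figure D5:**
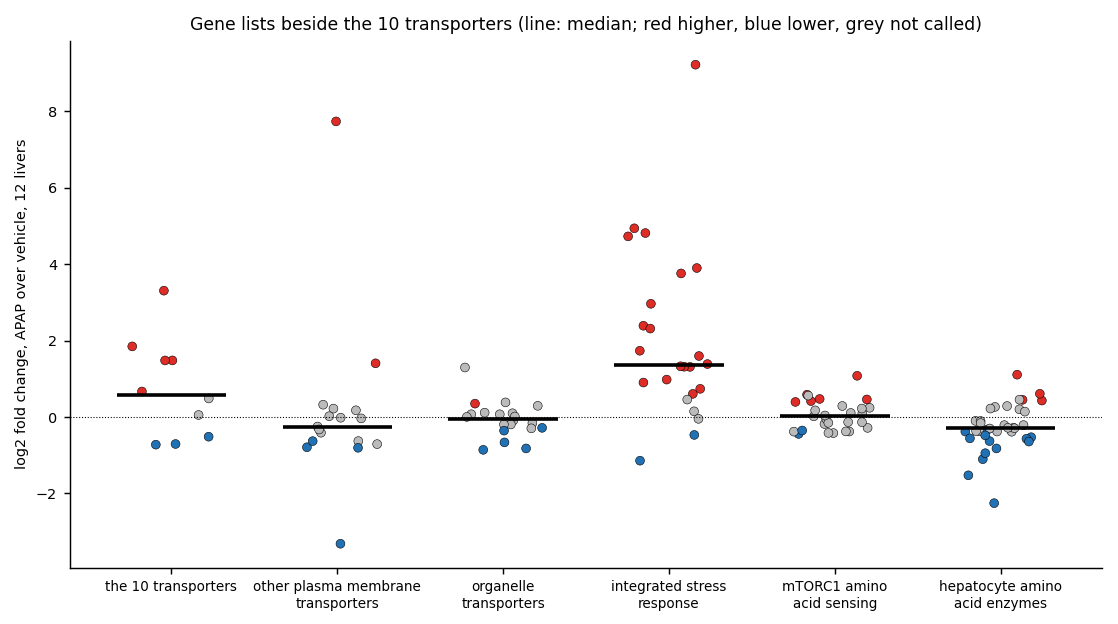
Log2 fold change of APAP over vehicle in 12 livers for the 10 transporters and the tested genes of 5 lists, with the median of each as a line, red for genes called higher, blue for lower and grey for neither. The integrated stress response had the highest median, 1.36, the 10 transporters had 0.58, and the other 4 lists lay between -0.30 and 0.03.

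In CPM, WT APAP liver 2 was the lowest APAP liver for 3 of the 5 risen transporters (*Slc7a1*, *Slc7a5* and *Slc3a2*). WT APAP livers 1 and 3 were the highest for 2 each. Among the 3 fallen transporters KO APAP liver 3 was the lowest in CPM for each. This order changed with the scale. In TPM, WT APAP liver 1 was the lowest for *Slc7a5* (1.81), *Slc3a2* (38.9), *Slc38a2* (83.4) and *Slc1a4* (0.588), and the highest for no risen member. It was also the lowest for *Slc7a2* (93.6) and *Slc38a3* (505), while KO APAP liver 3 remained the lowest for *Slc38a4* (237).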

How the data were processed

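RNA was measured in 12 mouse livers, 3 per group as the labels give them, each treated as a separate animal. Libraries were TruSeq Stranded poly-A, sequenced paired-end. The submitters' processing notes name FastQC 0.11.7, Trimmomatic 0.38, HISAT2 2.1.0, Bowtie2 2.3.4.1 and StringTie 2.1.3b with mm10. As deposited, the counts are whole numbers of reads per gene with no normalization. The deposited TPM and FPKM values are scaled by transcript length and library. How counting used strand or multi-mapped reads was not given in the sources used here.

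The main test was edgeR 4.0.16 (glmQLFit and glmQLFTest, R 4.3.3) on TMM-scaled counts after filterByExpr, with p-values adjusted across every tested gene by Benjamini-Hochberg and called under 0.05. Fits used the 6 livers compared, or all 12 for the pooled treatment effect and the interaction. Adjusted p-values are edgeR's unless stated, and SE is the log2 fold change divided by the root of F. Library sizes were total counts for the CPM values and, in each edgeR fit, the summed counts of the genes kept by its filter. Alternatives were DESeq2 1.42.0 (size factors, Wald test), 2 other filters, the newer edgeR method, all livers in 1 fit, the replicate number as a block, limma 3.58.1 on TPM after a log2 transform (pseudocount 1 or 0.1) and quantile normalization, and leaving out each liver. Correlations used exact two-sided permutation tests.

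The members, lists and tests were chosen with earlier results of these data known. Outside the members, each list gave at most the 6 genes with the smallest unadjusted p in the pooled fit. The most abundant markers and *Gna12* were also named. The cholangiocyte and neutrophil markers, the called endothelial, platelet and stellate markers, markers at 0 in every liver and overlapping genes were named after their values were seen. The lists named one gene, *Samtor*, not found under that symbol. Some genes that this rule names are not reported here. Labels give 10-12 weeks of age, the methods 8 to 12. Scripts were tested on simulated data.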

Additional observations from a re-analysis of the deposited data

Results flagged for a closer look

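*Slc1a4* in the APAP livers had 1 liver far from the others: KO APAP liver 1 had 7.95 CPM, the next liver 3.81 CPM, and the gap was 0.735 of the range of the 6 livers, above the critical value of 0.625 of Dixon's test. This was 1 of 20 sets tested (10 members in each treatment), and chance alone marks about 1 in 20. Without this liver the rise of *Slc1a4* was 1.21 on the log2 scale (SE 0.24, adjusted p = 0.00430) in all livers and 1.29 (SE 0.25, adjusted p = 0.0173) under the KO label.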

How the results depend on the processing

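In the fit of all 12 livers the 5 higher and 3 lower members were called under every alternative and with any 1 liver left out, except *Slc38a3* (adjusted p = 0.0534) with limma on log2(TPM + 0.1). On log2(TPM + 1) the log2 fold changes of low genes were smaller, at 0.88 for *Slc7a1*, 1.09 for *Slc7a5* and 0.68 for *Slc1a4*. In the WT, the members higher (3) were 0 with the replicate block and 1 with limma on either TPM scale, and 1 member was lower with DESeq2. All genes higher and lower (255 and 67) were 877 and 536 with DESeq2, 968 and 555 with all 12 livers in one fit, 55 and 1 with the replicate block, and 169 higher with limma on log2(TPM + 1). Leaving out 1 liver gave 0 to 3 members higher, 41 to 316 genes higher and 0 to 126 lower. Under the KO label, members lower (1) were 3 with DESeq2 (*Slc7a2* and *Slc38a3* added), *Slc38a2* lost its call with no filter on low counts (adjusted p = 0.0519) and with all 12 livers in one fit (adjusted p = 0.153), leaving 4 members higher, and genes lower (1504) were 844 with all 12 livers in one fit. Leaving out 1 liver gave 3 to 5 members higher (3 without KO vehicle liver 2), 0 to 2 lower, 1261 to 1967 genes higher and 734 to 1401 lower.

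Between genotype labels no member was called under any alternative. With vehicle, all genes (2 higher, 2 lower) were 62 and 75 with DESeq2, 0 and 0 with all 12 livers in one fit or with the replicate block, and 1 lower with at least 10 counts in every library or with limma on log2(TPM + 1). After APAP (2 higher, 3 lower) they were 21 and 8 with DESeq2, 0 and 1 with at least 10 counts, 0 and 0 with all 12 livers in one fit, 1 and 0 with the replicate block, and 5 lower with limma on either scale. The interaction gave 7 and 2 with DESeq2. Leaving out 1 liver gave 0 to 9 higher and 0 to 7 lower with vehicle, 1 to 4 and 0 to 3 after APAP, and 0 to 1 and 0 to 1 for the interaction.

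*Slc6a9* changed sign, at -0.0031 and -0.0035 with limma on log2(TPM + 1) and log2(TPM + 0.1), and over single livers left out it ranged from -0.0498 to 0.13 in all livers, -0.13 to 0.11 in the WT and -0.0931 to 0.29 under the KO label, where *Slc1a5* ranged from -0.11 to 0.24. On log2(TPM + 1), correlations turned from -0.82 to 0.32 (*Slc1a4* with *Slc1a5*, APAP), from -0.02 to 0.74 (*Slc38a3* with *Slc38a4*, vehicle) and from 0.02 to -0.54 (*Slc7a1* with *Slc7a2*, APAP). The cause of these changes was not tested. Livers of the same replicate number did not deviate together (12 correlations from -0.386 to 0.0397, 0 over 0.1), so the number is not a pairing. *Slc7a1*, *Slc7a5*, *Slc1a4* and *Slc1a5* rest on few vehicle counts, which limits their fold changes.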
